A study of Mus musculus with 12 samples.

Results

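Rab GTPases and SNARE proteins carry out membrane traffic, and their genes are described here in the mouse mammary gland during lactation, with and without Btn1a1. Btn1a1 encodes butyrophilin, which sits in the apical membrane of milk-secreting cells. The members were the rows of the deposited table named Rab with a number, or Stx, Vamp or Snap with a number, and 1 of the 66 matching names was left out and is not analysed here. This gave 65 of the 11834 genes in the table, 44 Rabs and 21 SNAREs, the SNAREs being 13 syntaxins (Stx), 5 Vamps and 3 Snaps. The rule used gene names and no measured value. Every one of the 65 symbols matched 1 gene of GENCODE M21 (mm10).

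The study compared 7 knockout mice, Btn1a1-/- (KO), with 5 wild type mice (WT), by polyA RNA sequencing of 1 gland library per mouse. All were C57BL/6 in lactation 1, and 5 KO and 3 WT glands were from day 10. KO replicates 3 and 4 were from days 8 and 11, and WT replicates 2 and 3 from days 9 and 11. Per the labels, mutant lines were kept apart from the wild type by pairing heterozygotes, and mice ate 1 of 2 diets that are not given per mouse, so genotype, line and diet cannot be told apart. Btn1a1 itself was at 5.63 ± 0.30 log2 CPM in KO (SD, n = 7) and 11.07 ± 0.09 in WT (SD, n = 5), a log2 change of -5.43 (SE 0.13, limma adjusted p = 5.2e-13), with no overlap. Luminal secretory markers, which check the labelled tissue, summed to between 280168 and 319927 CPM in KO and between 307636 and 309192 CPM in WT, and all 10 were measured. The deposited values were quantile-normalized, which ties the highest values across libraries. This sum therefore cannot compare luminal content between the genotypes.

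Rab proteins are small GTPases that switch between a GTP-bound form, which recruits effectors to a membrane, and a GDP-bound form that a chaperone extracts, and each Rab marks particular organelles. SNAREs are the coiled-coil proteins of vesicle and target membranes that zip together and fuse them. In the lactating gland this machinery carries casein vesicles, lactose and membrane proteins to the apical surface of the secretory cell, transports immunoglobulin from the basal to the apical side, and supplies endosomes and lysosomes. Rab and SNARE function is set largely by GTP loading and complex formation, which RNA levels do not measure.

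Levels are log2 CPM, read counts scaled to library size on a log2 scale. Changes are KO minus WT in log2 units with the standard error (SE) of a limma fit to the whole table. The threshold for a call was a Benjamini-Hochberg adjusted p under 0.05 across the 11834 genes. Of the 65 members 3 rose in KO and 2 fell, all of them Rabs, while 60 did not pass. Rab27a rose by 0.69, Rab7b by 0.45 and Rab11a by 0.29. Rab25 fell by 0.44 and Rab40b fell by 0.81 on the same scale. The called share was 7.69% of members, against 9.36% of all genes in the table, a share near the background. It was 5 of the 44 Rabs (11.4%) and 0 of the 21 SNAREs. For higher genes the share in the table was 4.84% and for lower genes 4.52%, against 3 and 2 of the 65 members. An unadjusted p under 0.05 was held by 18 members (27.7%), against 26.6% of the table, and among these were 16 of the 44 Rabs (36.4%) and 2 of the 21 SNAREs (9.52%). The difference between Rabs and SNAREs was not tested.

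Most changes in the group were small. The median log2 change was 0.00 over the 65 members and -0.03 over all genes, and the median size of a change, whatever its sign, was 0.12 over the members and 0.16 over all genes. In 43 of the 65 members the 95% interval of the change lay within 0.5 log2 units of 0 on either side, against 6677 of all 11834 genes. Members also stood at a higher level, with a median of the gene means of 3.83 log2 CPM, against 2.87 over all genes. Libraries of 1 genotype also differed little, with a median pooled SD of 0.16 log2 over the members and 0.22 over all genes. The 2 genotypes were fully separate for 2 members, Rab11a and Rab5c, which is 3.08% of members against 5.43% of all genes in the table. The 44 Rabs together made 993 to 1109 CPM in KO libraries and 1020 to 1066 CPM in WT libraries, and the 21 SNAREs made 373 to 417 CPM in KO and 379 to 424 CPM in WT, and both totals overlapped between the genotypes.

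**Figure D1:**
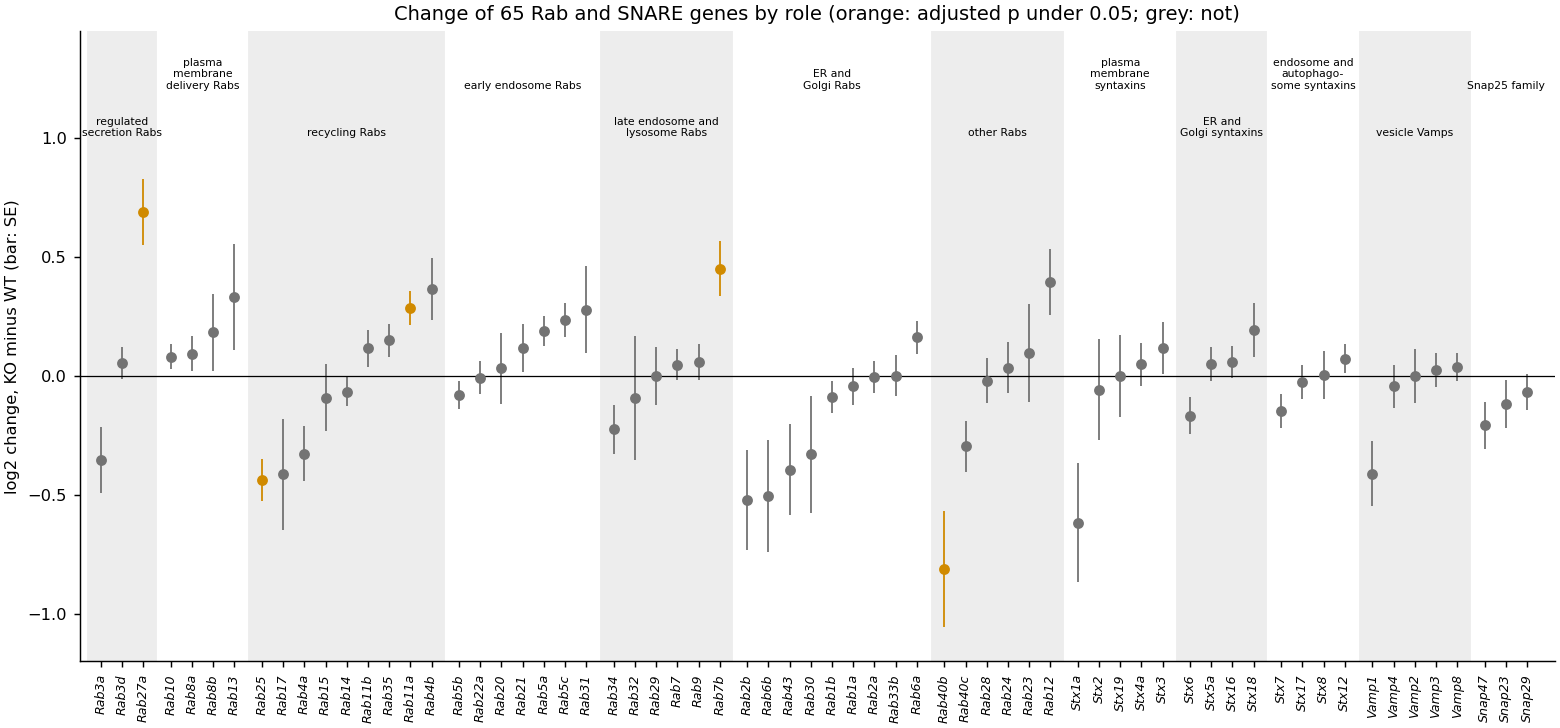
Log2 change (KO minus WT) of each of the 65 genes with its SE, ordered by role, in 7 KO and 5 WT libraries. Orange points passed an adjusted p of 0.05 and are all Rabs, namely Rab27a, Rab25, Rab11a, Rab7b and Rab40b, and grey points did not pass.

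Among the Rabs of regulated secretion, Rab27a, which docks secretory granules and lysosome-related organelles at the plasma membrane, had the largest rise of the 3 called. It was at a lowest, median and highest value of 3.59, 3.90 and 4.36 log2 CPM in the 7 KO libraries, against 3.08, 2.99, 3.26, 3.02 and 3.64 log2 CPM in WT replicates 1 to 5. WT replicate 5 lay within the KO range, above KO replicates 3 and 4, and the other 5 KO libraries exceeded every WT value. The log2 change of 0.69 (SE 0.14, adjusted p = 0.00905) is 1.61-fold, and the call was kept in each of the 12 fits that left out 1 library and with day 10 libraries alone (change 0.75, adjusted p = 0.0375). In a whole gland, more cells of a type and more RNA per cell cannot be told apart, and this holds for each change below.

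Rab3d, a granule Rab of exocrine cells, averaged 5.36 ± 0.11 log2 CPM in KO (SD, n = 7) and 5.31 ± 0.09 in WT (SD, n = 5), a change of 0.06 with a 95% interval of -0.09 to 0.20. Rab3a, best known from synaptic vesicles, had 5 of its 7 KO values under the whole WT range, at a change of -0.35 (SE 0.14) that did not pass (adjusted p = 0.115). The 4 measured Rabs of delivery to the plasma membrane had positive changes of 0.08 to 0.33 without a call. The highest of them, by CPM and per exon length, was Rab10, which carries the glucose transporter Glut4 in fat cells, at 5.57 ± 0.05 log2 CPM in KO (SD, n = 7) and 5.48 ± 0.04 in WT (SD, n = 5), and its adjusted p was 0.347.

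The recycling Rabs held calls in both directions within 1 subfamily. Rab11a, the widely expressed Rab of recycling endosomes, rose, while Rab25, its close relative of epithelial cells, fell. Rab11a was at a lowest, median and highest value of 4.41, 4.51 and 4.65 log2 CPM in KO, against 4.29, 4.06, 4.34, 4.16 and 4.27 in WT replicates 1 to 5. Every KO value exceeded every WT value (change 0.29, SE 0.07, adjusted p = 0.0244). Leaving out WT replicate 2 (adjusted p = 0.0663) or WT replicate 4 (0.0528) ended that call, as did a fit to day 10 libraries alone (change 0.28, adjusted p = 0.110).

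Rab25 was at a lowest, median and highest value of 3.42, 3.59 and 3.91 log2 CPM in KO, against 4.12, 4.16, 3.87, 4.17 and 4.09 in WT replicates 1 to 5. KO libraries lay below all WT libraries except KO replicate 5, which was just above WT replicate 3. Rab25 fell by 0.44 (SE 0.09, adjusted p = 0.00885), a linear change of -26.1%, and the call was kept in all 12 fits without 1 library and with day 10 libraries alone (change -0.42, adjusted p = 0.0483). The difference of Rab11a minus Rab25 within a library ran from 0.50 to 1.09 log2 in KO and from -0.11 to 0.46 in WT. This pair was chosen after its values were seen, and its difference was not tested.

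The promoters of these 3 genes, from 250 bases before to 50 bases after the annotated start, are shown because these genes hold the largest rise and the opposite calls within the Rab11 subfamily. They are from RefSeq (GRCm38.p6), read 5′ to 3′ on the gene's strand. Capitals mark matches, on either strand, of any of 5 motifs. The first was the GC box, with the letters GGGCGG. The second was the CCAAT box, which is spelled as its name. The others were the E-box, spelled CACGTG in this search, the TATA box, for which the search string was TATAAA, and the Stat site, for which it was TTCNNNGAA. Rab11a lies on the minus strand at chr9:64737707-64738006, Rab25 on the minus strand at chr3:88548230-88548529, and the first of the 2 listed Rab27a starts on the plus strand at chr9:73044560-73044859.
Rab11a: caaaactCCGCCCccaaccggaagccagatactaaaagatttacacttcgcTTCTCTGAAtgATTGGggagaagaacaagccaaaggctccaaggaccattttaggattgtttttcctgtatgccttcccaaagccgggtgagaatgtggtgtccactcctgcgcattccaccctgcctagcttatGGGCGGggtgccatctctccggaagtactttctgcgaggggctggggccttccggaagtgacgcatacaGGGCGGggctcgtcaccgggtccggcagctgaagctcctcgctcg
Rab25: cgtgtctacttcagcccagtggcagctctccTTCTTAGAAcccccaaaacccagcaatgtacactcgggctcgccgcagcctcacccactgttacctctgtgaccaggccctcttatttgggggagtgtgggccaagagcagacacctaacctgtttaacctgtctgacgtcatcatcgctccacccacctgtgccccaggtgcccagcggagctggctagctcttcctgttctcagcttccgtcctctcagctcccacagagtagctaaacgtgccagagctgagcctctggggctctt
Rab27a: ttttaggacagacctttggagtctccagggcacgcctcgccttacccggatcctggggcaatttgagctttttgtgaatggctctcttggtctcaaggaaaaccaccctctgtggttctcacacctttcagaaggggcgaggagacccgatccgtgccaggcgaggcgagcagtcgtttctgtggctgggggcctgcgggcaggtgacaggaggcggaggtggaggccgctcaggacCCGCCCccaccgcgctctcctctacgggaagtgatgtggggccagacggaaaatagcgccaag
The Rab11a window held 3 GC boxes, 1 CCAAT box and 1 Stat site, the Rab25 window 1 Stat site alone and this Rab27a window 1 GC box alone. The second Rab27a window, on the plus strand at chr9:73063898-73064197, held 1 E-box and 2 CCAAT boxes and no GC box. RefSeq listed 76 promoters for 59 of the 65 members, and Rab7b was not among them. A GC box stood in 67.1% of these, against 35.7% of the 32851 promoters in the table, and a Stat site in 7.89% against 8.30%. A CCAAT box stood in 42.1% against 37.4%, an E-box in 10.5% against 7.15%, and a TATA box in 3.95% against 13.6%. No share was taken over the promoters of the 11834 measured genes alone, so these differences may not be particular to Rab and SNARE genes. These matches describe letters and are not evidence of binding.

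The other recycling Rabs did not pass. Rab4a, of fast recycling from early endosomes, averaged 4.24 ± 0.25 log2 CPM in KO (SD, n = 7) and 4.56 ± 0.15 in WT (SD, n = 5), and its paralog Rab4b 2.21 ± 0.24 in KO and 1.85 ± 0.16 in WT. Their changes of -0.33 (adjusted p = 0.0892) and 0.37 (adjusted p = 0.0880) had opposite signs. Rab15, an endocytic Rab described mostly in neurons, was the highest recycling Rab in this gland, by CPM and per exon length, at 6.79 ± 0.31 log2 CPM in KO and 6.88 ± 0.20 in WT, with a 95% interval of the change from -0.39 to 0.21. Rab17, an epithelial Rab of apical sorting, had a change of -0.41 (SE 0.23, adjusted p = 0.280) with KO values from 1.80 to 3.32, against 2.79 to 3.49 in WT.

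**Figure D2:**
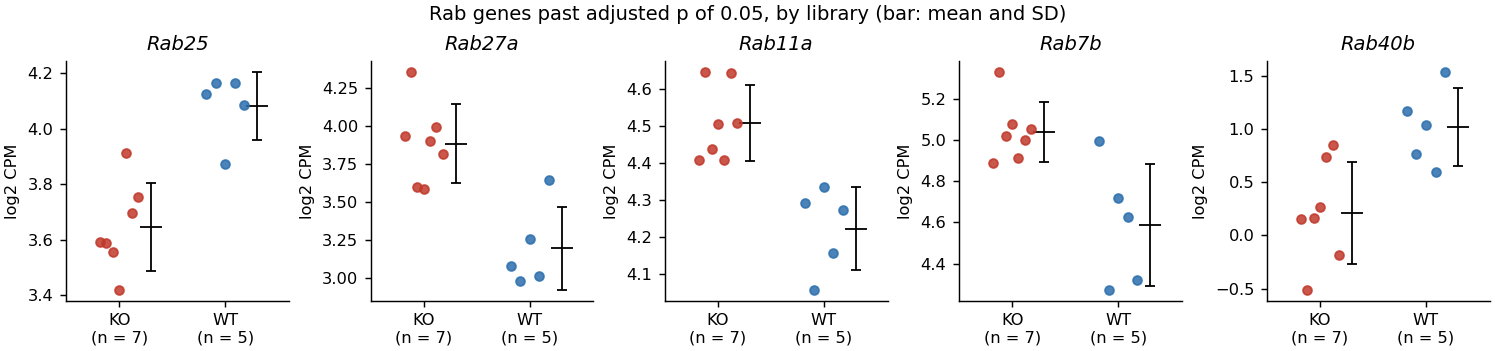
Log2 CPM of the 5 called Rabs in each of 7 KO (red) and 5 WT (blue) libraries, with the mean and SD as a bar. For Rab11a the groups do not overlap, while for Rab25, Rab27a, Rab7b and Rab40b at least 1 library lies within the range of the other genotype.

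Of the 7 early endosome Rabs 5 had a positive change and none was called. Rab5c, 1 of 3 Rab5 isoforms that drive fusion of early endosomes, was at a lowest, median and highest value of 5.17, 5.31 and 5.59 log2 CPM in KO, against 5.10, 5.13, 5.03, 5.09 and 5.01 in WT replicates 1 to 5. Its groups did not overlap, but the change of 0.24 (SE 0.07) did not pass (adjusted p = 0.0534). Without KO replicate 3 or KO replicate 5 it passed, as it did with library weights, with cyclic loess and over genes of at least 1 log2 CPM, and the adjusted p over the 12 fits without 1 library ran from 0.0397 to 0.112. Rab5a had a change of 0.19 (SE 0.06, adjusted p = 0.0722), with KO values between 4.88 and 4.96 and WT values between 4.57 and 4.92. Rab5b had a change of -0.08 (SE 0.06, adjusted p = 0.405). Of the other members of this role, Rab20, Rab21, Rab22a and Rab31, the changes ran from -0.01 to 0.28 without a call.

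Of the late endosome and lysosome Rabs only Rab7b passed among 6 measured (16.7%, against 9.36% of all genes in the table). Rab7b, which takes part in transport from late endosomes to the trans-Golgi network, was at a lowest, median and highest value of 4.89, 5.02 and 5.33 log2 CPM in KO, against 5.00, 4.27, 4.72, 4.63 and 4.32 in WT replicates 1 to 5. WT replicate 1 lay within the KO range, and the 5 KO libraries other than replicates 1 and 5 exceeded every WT value. Rab7b rose by 0.45 (SE 0.12, adjusted p = 0.0261), and the call was lost on leaving out WT replicate 2 (adjusted p = 0.0706) or WT replicate 5 (0.0712) and in day 10 libraries alone (change 0.39, adjusted p = 0.165). Rab7, which drives fusion of late endosomes with lysosomes and shares the number but not the route, averaged 6.50 ± 0.10 in KO (SD, n = 7) and 6.46 ± 0.06 in WT (SD, n = 5), with a 95% interval of the change from -0.09 to 0.19. Rab9, Rab29 and Rab32 had changes of 0.06, 0.00 and -0.09, and Rab34 one of -0.22 (adjusted p = 0.180).

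None of the 9 measured Rabs of the endoplasmic reticulum and Golgi was called, here or in the authors' deposited table. By limma 2 of them (22.2%, against 26.6% of all genes in the table) had an unadjusted p under 0.05. These were Rab6a with a positive change and Rab2b with a negative one. Rab1a, which drives transport of new secretory cargo to the Golgi, averaged 7.31 ± 0.06 log2 CPM in KO (SD, n = 7) and 7.35 ± 0.16 in WT (SD, n = 5), with a 95% interval of the change from -0.21 to 0.12. Rab2a, of Golgi and vesicle traffic, averaged 6.00 in both groups (change 0.00, interval -0.15 to 0.14). Rab2b had a change of -0.52 (SE 0.21, adjusted p = 0.127), Rab6b, a neuronal isoform, one of -0.50 (SE 0.24, adjusted p = 0.188) and Rab43, also of the Golgi, one of -0.39 (SE 0.19, adjusted p = 0.204).

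Among the remaining Rabs, Rab40b, whose SOCS box joins it to a Cullin 5 ubiquitin ligase, fell by 0.81 (SE 0.24, adjusted p = 0.0491). It was at a lowest, median and highest value of -0.51, 0.16 and 0.85 log2 CPM in KO, against 1.17, 0.77, 1.04, 0.60 and 1.54 in WT replicates 1 to 5. KO replicates 5 and 6 lay within the WT range. This call at a low level had the highest adjusted p of the 5. It ended in 9 of the 12 fits without 1 library, where adjusted p reached 0.126 (without WT replicate 5). It was kept in the fits without KO replicate 5, KO replicate 6 or WT replicate 4. The same call was lost with lactation day as a covariate (0.0559), cyclic loess (0.0587), eBayes without trend and robust (0.0539) and day 10 libraries alone (0.165). Its paralog Rab40c had a change of -0.30 (SE 0.11, adjusted p = 0.0939), with 6 of 7 KO values under the WT range. Rab12, of recycling endosome to lysosome traffic, had one of 0.40 (SE 0.14, adjusted p = 0.0854), with 6 of 7 KO values over the WT range. Rab28 had a change of -0.02 (SE 0.10, adjusted p = 0.922).

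No SNARE was called by limma, and 2 of 21 (9.52%) had an unadjusted p under 0.05, against 26.6% of all genes in the table. The authors' deposited table likewise calls 0 of the 21. In 18 of the 21 the 95% interval of the change lay within 0.5 log2 of 0, against 6677 of all 11834 genes. Of the plasma membrane syntaxins, Stx3, the apical one of epithelial cells, averaged 4.96 ± 0.23 log2 CPM in KO (SD, n = 7) and 4.84 ± 0.15 in WT (SD, n = 5), and the interval of its change ran from -0.12 to 0.35. Stx4a, the basolateral one, had a change of 0.05 (interval -0.14 to 0.24), and Stx19, which has no membrane anchor of its own, one of 0.00 (interval -0.37 to 0.37). Stx1a, the syntaxin of nerve terminals, was low in both groups, at a lowest, median and highest value of -1.09, -0.29 and 0.16 log2 CPM in KO, against 0.47, -0.17, 0.00, 0.54 and 0.18 in WT replicates 1 to 5, and its change of -0.62 (SE 0.25) did not pass (adjusted p = 0.131).

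Of the 5 Vamps, SNAREs of the vesicle side, all but Vamp1 had changes between -0.04 and 0.04. Vamp8, an endosomal and exocrine granule SNARE, averaged 5.19 ± 0.08 log2 CPM in KO (SD, n = 7) and 5.15 ± 0.04 in WT (SD, n = 5), and Vamp3, of recycling endosomes, 5.19 ± 0.09 in KO and 5.17 ± 0.13 in WT. The intervals of their changes were -0.09 to 0.16 and -0.13 to 0.18. Vamp1, a neuronal isoform, was at a lowest, median and highest value of 2.31, 2.57 and 3.08 in KO, against 2.95, 2.92, 2.89, 3.14 and 3.11 in WT replicates 1 to 5. With 5 of 7 KO libraries under the WT range, it had a change of -0.41 (SE 0.13, adjusted p = 0.0690). Vamp1 passed without KO replicate 3 (adjusted p = 0.0412) or KO replicate 6 (0.0177), the 2 highest KO libraries, and with library weights (0.0417).

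The 8 syntaxins of internal membranes had changes between -0.17 and 0.19. Stx5a, which pairs with Golgi SNAREs for cargo arriving from the endoplasmic reticulum, averaged 5.20 ± 0.09 log2 CPM in KO and 5.15 ± 0.14 in WT (interval of the change -0.10 to 0.21). Stx6, of the trans-Golgi network, had a change of -0.17 (SE 0.08, adjusted p = 0.189), and Stx7, of late endosomes, one of -0.15 (SE 0.07, adjusted p = 0.214). All 3 Snap25 relatives had negative changes without a call. Snap23, the widely expressed partner of plasma membrane syntaxins, averaged 5.49 ± 0.19 in KO and 5.61 ± 0.17 in WT (interval -0.33 to 0.09), and Snap47 had a change of -0.21 (SE 0.10, adjusted p = 0.203).

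Levels can be set side by side only per length, here as log2 CPM per kb of annotated exon, a length that counts all isoforms of a gene. By that measure Rab1a stood highest, at 5.38 ± 0.06 in KO (SD, n = 7) and 5.43 ± 0.16 in WT (SD, n = 5), followed by Rab7 at 5.12 ± 0.10 in KO and 5.07 ± 0.06 in WT, Rab2a at 4.91 ± 0.11 in KO and 4.91 ± 0.08 in WT, and Rab15 at 4.58 ± 0.31 in KO and 4.67 ± 0.20 in WT. Vamp8 was the highest SNARE in both groups, at 3.98 in KO and 3.94 in WT, above Vamp3 at 3.66 in KO and 3.64 in WT. The lowest were Rab23, a Rab of ciliary signalling, at -2.38 in KO and -2.47 in WT, and Rab2b at -2.09 in KO and -1.57 in WT. Each of the steps between these first 4 Rabs exceeded the larger SD of the 2 genes in both genotypes. Over the whole order 52 of the 64 neighbouring pairs in KO and 53 of 64 in WT differed by no more than that SD, so most single steps were within the spread.

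**Figure D3:**
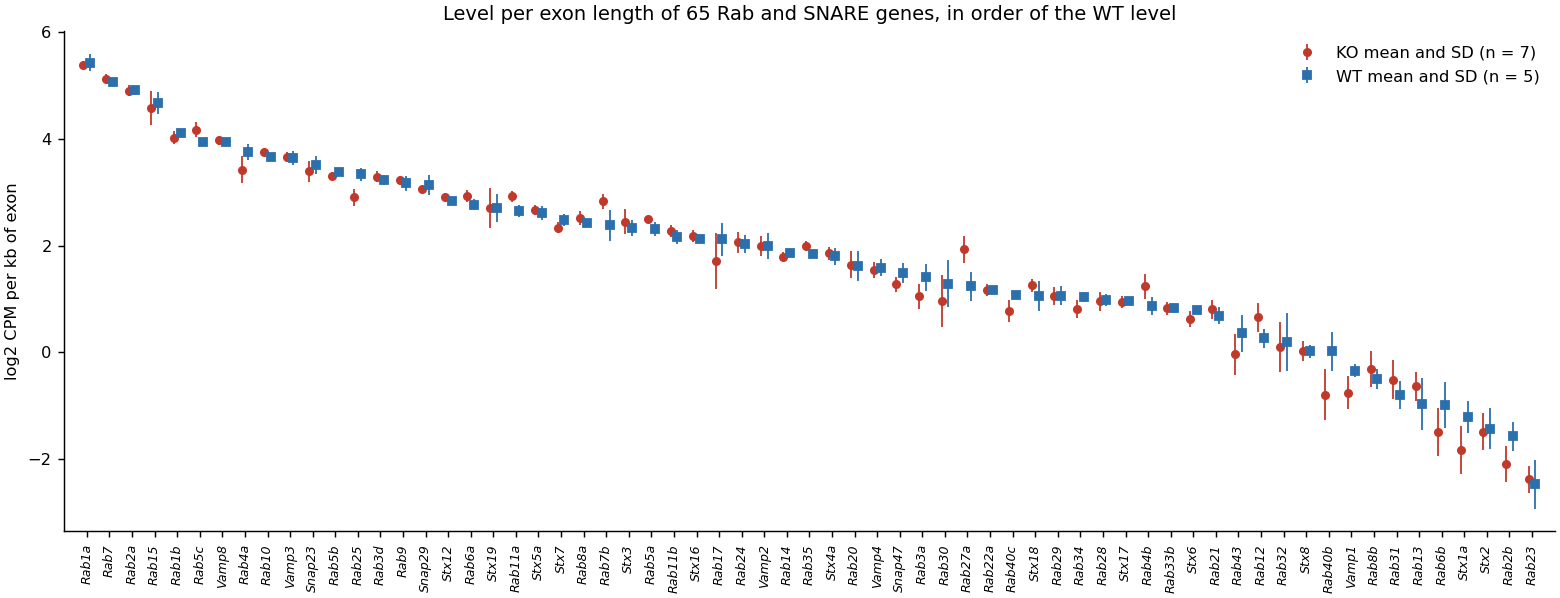
Level of each of the 65 genes as log2 CPM per kb of exon, mean and SD of 7 KO (red circles) and 5 WT (blue squares) libraries, in order of the WT mean. Levels run from Rab1a at 5.38 in KO and 5.43 in WT to Rab23 at -2.38 in KO and -2.47 in WT. The genotype means of 43 of the 65 genes differed by less than 0.2, against 6820 of all 11834 genes.

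Paralogs that share a Rab number were compared within each library, for all 11 pairs of measured genes that differ in the letter alone, by exact 2-sided permutation of the genotype over the 12 libraries, with p adjusted over the 11 pairs. Within the Rab5 group Rab5b became lower relative to both other isoforms. Rab5a minus Rab5b was -0.47 ± 0.07 log2 in KO (SD, n = 7) and -0.74 ± 0.12 in WT (SD, n = 5; exact permutation p = 0.00126, the lowest value that 792 regroupings allow, adjusted p = 0.0139). Rab5b minus Rab5c was 0.07 ± 0.19 in KO and 0.38 ± 0.06 in WT (exact permutation adjusted p = 0.0139). The KO and WT libraries overlapped for neither difference. Rab5a minus Rab5c, at -0.41 ± 0.15 in KO and -0.36 ± 0.14 in WT, did not pass (exact permutation adjusted p = 0.663).

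Rab4a minus Rab4b was 2.02 ± 0.34 log2 in KO and 2.71 ± 0.21 in WT, a shift of -0.69 (exact permutation adjusted p = 0.0139). Rab3a minus Rab3d shifted by -0.41 (exact permutation adjusted p = 0.0361) and Rab2a minus Rab2b by 0.52 (0.0347). The Rab4 and the Rab5b to Rab5c shifts ended their call without WT replicate 4 (adjusted p = 0.0556 for each), while Rab5a to Rab5b kept it without any single library. The Rab3 shift was kept only without KO replicate 5 or 6 (otherwise adjusted p up to 0.0933) and the Rab2 shift only without KO replicates 1, 3 or 5 or WT replicate 5 (otherwise up to 0.100). The other 6 pairs did not pass, Rab11a with Rab11b, Rab1a with Rab1b, Rab8a with Rab8b, Rab6a with Rab6b and Rab40b with Rab40c among them. With day 10 libraries alone no pair passed, at a smallest raw p of 0.0179 that 5 KO and 3 WT libraries allow. A ratio within a library shows unequal change and not which paralog moved, and reads that match both paralogs of a pair could be split wrongly between them.

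**Figure D4:**
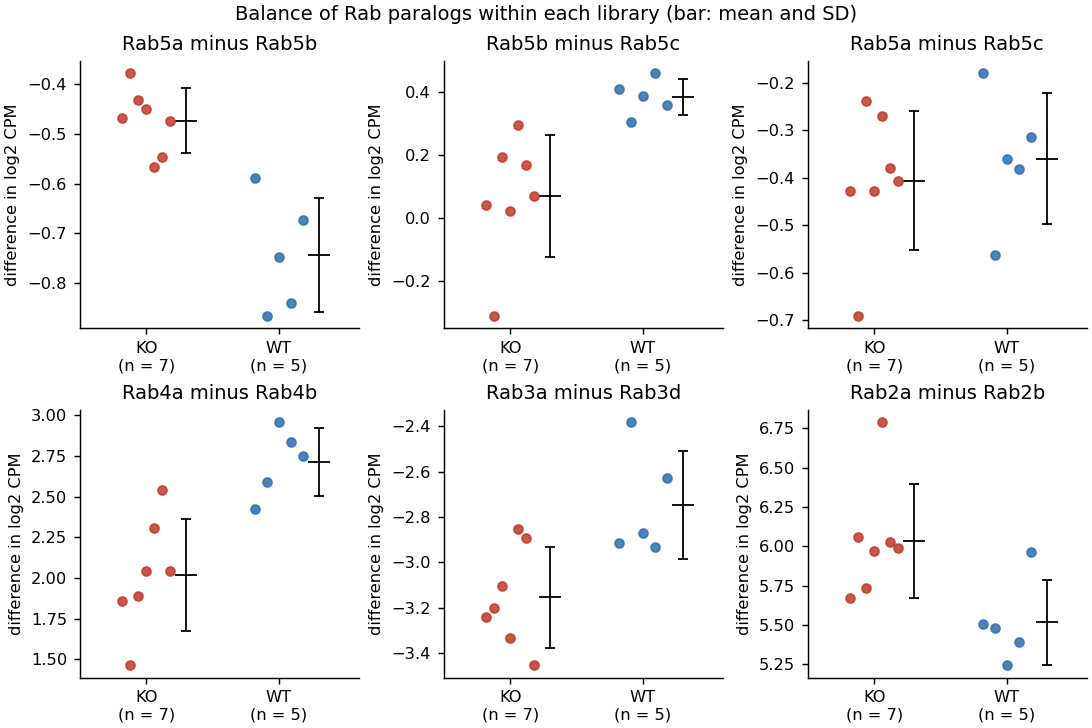
Difference in log2 CPM between 2 Rab paralogs within each of 7 KO (red) and 5 WT (blue) libraries, with mean and SD, for 6 of the 11 pairs. Rab5a minus Rab5b lies between -0.57 and -0.38 in KO and between -0.87 and -0.59 in WT, and Rab5a minus Rab5c overlaps between the genotypes.

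The partners of Rabs and SNAREs were taken from 8 lists of 166 names, 153 of them measured, in which 5 genes rose and 10 fell (9.80% called, against 9.36% in the table). The median log2 change was -0.06, against -0.03 over all genes. The genotypes were fully separate for 7 of the 153 (4.58%), against 5.43% of all genes in the table. Among Rab effectors 1 of 37 rose and 3 fell (10.8% called), with a median log2 change of -0.12. Rab11fip2, an adaptor that ties Rab11 and Rab25 vesicles to myosin Vb, rose by 0.82 (SE 0.11, adjusted p = 0.0019). It was at a lowest, median and highest value of 3.99, 4.23 and 4.56 log2 CPM in KO, against 3.24, 3.25, 3.69, 3.60 and 3.42 in WT replicates 1 to 5, so the groups did not overlap. Rab11fip5, another Rab11-binding adaptor, fell by 0.45 (SE 0.12, adjusted p = 0.0261), and its genotypes did not overlap. Rab11fip4 fell by 0.47 (SE 0.13, adjusted p = 0.0324), and Rph3al, which binds Rab3 and Rab27 on secretory granules, fell by 0.93 (SE 0.23, adjusted p = 0.0260). Rab11fip2 kept its call without any 1 library. That of Rab11fip5 ended without KO replicate 1 or WT replicates 1, 2, 3 or 5 (adjusted p up to 0.0662), that of Rph3al without KO replicate 2 or WT replicates 1, 2, 3 or 5 (up to 0.0660), and that of Rab11fip4 without KO replicates 1, 2, 4 or 7 or WT replicates 1, 2, 3 or 5 (up to 0.0863).

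Rab GTPase activating proteins, which return Rabs to the GDP-bound form, gave 2 of 33 higher and 5 lower (21.2% called, against 9.36% of all genes), with a median log2 change of -0.07. The related pair Tbc1d4 and Tbc1d1, both insulin-regulated in muscle and fat, moved in opposite directions. Tbc1d4 fell by 0.56 (SE 0.11, adjusted p = 0.00806), at a lowest, median and highest value of 5.34, 5.67 and 5.99 log2 CPM in KO against 6.39, 6.04, 6.18, 6.37 and 6.07 in WT replicates 1 to 5, without overlap. Tbc1d1 rose by 0.82 (SE 0.18, adjusted p = 0.0127), with 6 of 7 KO values over the WT range, and Tbc1d9 by 0.84 (SE 0.18, adjusted p = 0.0112). Sgsm3 fell by 0.33 (SE 0.08, adjusted p = 0.0250), a call that ended without KO replicate 1 or WT replicates 1, 2, 4 or 5 (adjusted p up to 0.0624). The other 3 falls, Tbc1d13, Tbc1d30 and Tbc1d24, had adjusted p between 0.0264 and 0.0288. Their calls ended without WT replicates 2 or 5 (up to 0.0715), that of Tbc1d13 also without WT replicate 4, that of Tbc1d30 also without KO replicates 1 or 2 or WT replicate 4, and that of Tbc1d24 also without KO replicates 1 or 2 or WT replicates 1 or 3. The calls of Tbc1d4, Tbc1d1 and Tbc1d9 were kept without any 1 library but ended with day 10 libraries alone (adjusted p of 0.0515 for Tbc1d4, 0.0768 for Tbc1d1 and 0.144 for Tbc1d9). With the skeletal muscle marker level as a covariate the calls of Tbc1d1 (0.0568) and Tbc1d9 (0.0719) ended and that of Tbc1d4 was kept.

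Of 8 genes of Rab prenylation and membrane recycling 2 fell (25.0%, against 4.52% lower in the table), and the median log2 change of the 8 was 0.02. Rabac1, which binds prenylated Rabs and Vamp2, was at a lowest, median and highest value of 4.07, 4.61 and 4.91 log2 CPM in KO, against 5.05, 5.17, 5.07, 5.14 and 5.20 in WT replicates 1 to 5. It fell by 0.53 (SE 0.12, adjusted p = 0.0137) without overlap and kept its call without any 1 library. Rabggta, the alpha subunit of the enzyme that prenylates Rabs, fell by 0.38 (SE 0.10, adjusted p = 0.0324), and that call ended without KO replicates 1 or 7 or WT replicates 1, 2 or 5 (adjusted p up to 0.0848). Gdi2, the chaperone that extracts Rabs from membranes, had a change of 0.13 (SE 0.06, adjusted p = 0.203).

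Among 29 exchange factors, which load Rabs with GTP, 1 was called (3.45%, against 9.36% of all genes). This was Dennd5a, which rose by 0.65 (SE 0.10, adjusted p = 0.0033). Its lowest, median and highest values were 3.74, 4.01 and 4.22 log2 CPM in KO, against 3.25, 3.60, 3.39, 3.43 and 3.04 in WT replicates 1 to 5, without overlap. Of the 9 subunits of the exocyst, a tether of vesicles at the plasma membrane, 1 was called (11.1%, against 9.36% of all genes). Exoc3 rose by 0.28 (SE 0.08, adjusted p = 0.0354), a call kept in 4 of 12 fits without 1 library, those without KO replicates 3, 4 or 5 or WT replicate 2 (otherwise up to 0.0895). Among 12 further SNAREs limma called 0, and 0 had an unadjusted p under 0.05. Among 18 genes of SNARE binding and disassembly it called 0, with 3 (16.7%) at an unadjusted p under 0.05. Among 7 endosomal tether subunits it called 0, with 2 (28.6%). The share of all genes at an unadjusted p under 0.05 was 26.6%. Napa and Nsf, which take spent SNARE complexes apart, had changes of 0.22 (adjusted p = 0.0937) and -0.21 (adjusted p = 0.101).

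**Figure D5:**
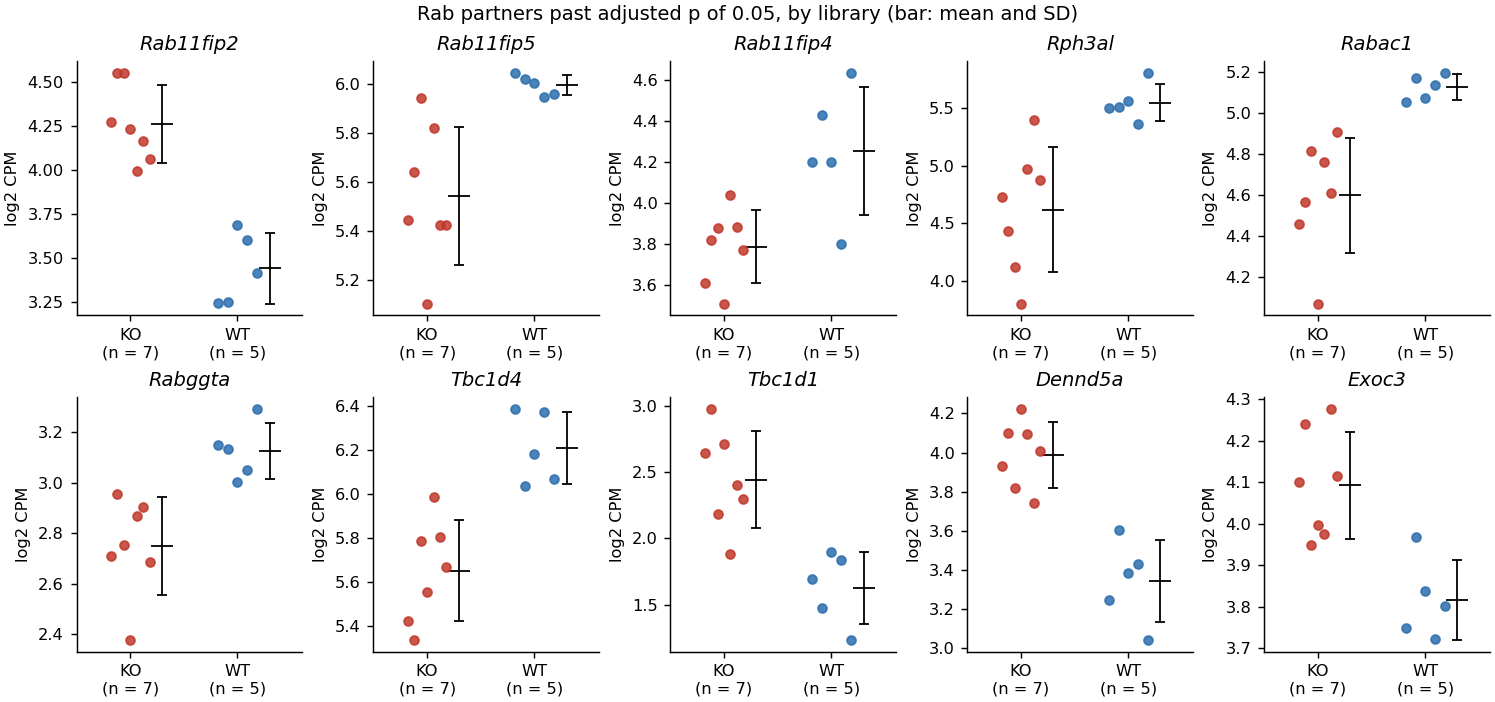
Log2 CPM of 10 called partners of Rabs in 7 KO (red) and 5 WT (blue) libraries, with mean and SD. Rab11fip2, Tbc1d1, Dennd5a and Exoc3 are higher in KO and the other 6 lower, and Rab11fip2, Rab11fip5, Rabac1, Rabggta, Tbc1d4 and Dennd5a show no overlap between the genotypes. Over all 153 measured partners 7 (4.58%) did not overlap, against 5.43% of all genes.

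Macrophage, basal, luminal secretory and adipocyte markers were called higher in KO more often than the 4.84% of all genes in the table. Of 13 macrophage markers 4 rose and 0 fell, and their summed level ran from 116 to 223 CPM in KO and from 106 to 135 CPM in WT. Of 10 basal and myoepithelial markers 6 rose and 0 fell, at 582 to 897 CPM in KO and 517 to 695 CPM in WT. Skeletal muscle markers summed to between 128 and 2082 CPM in KO and between 87.1 and 582 CPM in WT, with 0 of 18 called. Their median log2 change of 1.22 was nevertheless the largest of the marker lists. Their mean level was 4.59 log2 CPM in KO and 3.46 in WT, and 5 of the 7 KO libraries lay above every WT library. Of 10 luminal secretory markers 2 rose and 0 fell. All listed macrophage, basal, muscle and luminal markers were in the table. Of 9 adipocyte markers 1 rose, of 8 endothelial markers 1 fell, and 1 of 9 T and B cell and 2 of 8 neuron and Schwann cell markers were in the table, none of them called. With the mean macrophage marker level as a covariate 0 of 65 members and 4 of all 11834 genes passed, while the fitted changes of the called Rabs were 0.80 for Rab27a, 0.46 for Rab7b, 0.39 for Rab11a, -0.36 for Rab25 and -0.47 for Rab40b. That marker level was above every WT library in 6 of the 7 KO libraries. With it in the fit the SE rose from 0.14 to 0.21 for Rab27a and from 0.09 to 0.13 for Rab25. With the muscle marker level as a covariate Rab27a alone passed (change 0.73, adjusted p = 0.0307), and Rab25 had an adjusted p of 0.0542. Of the 15 called partners Rab11fip2, Dennd5a, Tbc1d4 and Exoc3 passed with that covariate, and 0 of the 15 with the macrophage one. Both marker levels differed between the genotypes, so these fits cannot separate them from genotype. The part of these cell types in the Rab and partner changes was not tested.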

How the data were processed

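The authors deposited 1 table of 11834 genes with log2 CPM values for 12 libraries, and the authors' log2 fold change, signed linear fold, t statistic (a score) and p-value with its adjusted p-value. Per the submitters' processing notes, tools comprised limma 3.34.5, RSEM 1.3.0, STAR 2.5.2b, Trimmomatic 0.33 and bcl2fastq 2.17, and builds mm10 and hg19 are named without roles. Annotation and gene filter are not stated in the labels. The deposited log2 values were already quantile-normalized (67.1% of ranks differed by under 0.01 log2 across libraries), which gives libraries equal totals and ties each value to its rank. Counts were not used here and depth per library is unknown, so no counting interval is given.

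Groups came from the labels. Log2 CPM was fitted by genotype with limma 3.58.1 in R 4.3.3 (eBayes, trend and robust), with Benjamini-Hochberg adjustment over all genes and a threshold of 0.05. The procedure was tested on simulated data. Exon lengths came from GENCODE M21, and promoters from RefSeq. Paralog differences were tested by exact permutation (792 regroupings). Figures used matplotlib 3.10.9 in Python 3.11.15.

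Members, role groups, partner lists and markers were chosen with earlier results of these data known. Named genes were every called member, the 12 members of smallest p, the most abundant and smallest-p member of each role, up to 4 genes of smallest adjusted p per partner list, and Btn1a1; others are given by their role's range or as members of a described pair. Alternatives were a replicate block, lactation day as covariate, day 10 alone, median centring, cyclic loess, a mean of at least 1 log2 CPM, eBayes without trend and robust, library weights, muscle or macrophage covariates, the authors' statistics, stricter thresholds and leaving out each library. A pseudocount does not apply, and the table was already filtered.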

Additional observations from a re-analysis of the deposited data

Results flagged for a closer look

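Within each genotype, the highest or lowest library of the named members and of Btn1a1 was compared with the rest by Dixon's ratio at the 95% level. Of 58 groups of values 8 held a library that stood apart, where chance gives about 1 in 20. KO replicate 2 stood apart as high for Rab7b, at 5.33 log2 CPM against 4.89 to 5.08 in the other KO libraries, and for Rab5c, at 5.59 against 5.17 to 5.32. KO replicate 4 stood apart as high for Rab12, at 2.84 against 2.02 to 2.33, and as low for Rab40c, at 1.99 against 2.38 to 2.60. KO replicate 3 was at 4.96 for Rab5a, against 4.88 to 4.91 in the other KO libraries, a gap that is small because the KO values are so close. KO replicate 5 was at -0.74 for Rab2b, against -0.11 to 0.34. WT replicate 3 was at 3.87 for Rab25, against 4.09 to 4.17 in the other WT libraries, and at 11.23 for Btn1a1, where the other 4 WT libraries all held 11.03. Quantile normalization ties values across libraries, and 4 equal values give a Dixon ratio of 1 whatever the other value is. The Btn1a1 flag was therefore fixed by the tie.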

How the results depend on the processing

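The 5 called members were 2 with day 10 libraries alone, 8 with library weights, 1 with the muscle covariate, 0 with the macrophage covariate, 2 at an adjusted p under 0.01, 2 with an added log2 change of at least 0.5, and between 2 (without WT replicate 2) and 7 (without KO replicate 5) when 1 library was left out, with 3 without WT replicate 5. The 1108 genes called in the table were 268, 266 and 4 with day 10 alone, the muscle and the macrophage covariate, and between 559 (without WT replicate 1) and 1327 (without KO replicate 6) without 1 library. The 15 called partners were 4, 4 and 0 under the same 3 settings, and between 6 (without WT replicate 5) and 18 (without KO replicate 5). The 5 called paralog pairs were 0 with day 10 alone and between 1 (without WT replicate 4) and 5 without 1 library. Day 10 alone allows a smallest raw permutation p of 0.0179, and the adjusted p of Rab5a minus Rab5b was 0.196 there. Its loss of paralog calls was therefore nearly fixed in advance. Rab27a and Rab25 kept their calls in all 12 fits without 1 library, and the sign of the 5 called members was kept in every setting. The cause of these shifts was not tested.

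Signs changed only for values that were not called in either fit. With day 10 alone these were Rab15 (0.109), Tgfbrap1 (0.0694), Rab1a minus Rab1b (-0.0449) and Rab8a minus Rab8b (0.168), with the macrophage covariate Rab15 (0.299), Rab28 (0.0140), Tgfbrap1 (0.100), Exoc8 (0.0543) and Ykt6 (0.00913), with the muscle covariate Tgfbrap1 (0.0187) and with cyclic loess Rab28 (0.00122). Without 1 library the log2 change ran from -0.102 to 0.00226 for Rab1a, -0.0661 to 0.0151 for Rab28, -0.00737 to 0.0740 for Stx5a, -0.0195 to 0.0641 for Vamp3 and -0.106 to 0.00930 for Tgfbrap1, and the difference from -0.0227 to 0.102 for Rab1a minus Rab1b, -0.0971 to 0.00142 for Rab5a minus Rab5c and -0.153 to 0.0243 for Rab8a minus Rab8b.

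The replicate numbers did not pair KO with WT libraries: correlations of same-numbered libraries, as deviations from the group means over all genes, ran from -0.17 to 0.21. With a replicate block 4 members were called, Rab25, Rab4a, Rab27a and Rab40b, and 1083 genes in the table. Values tied to ranks by quantile normalization and an unknown depth limit what can be read from members at low levels, such as Rab40b, Stx1a and Rab2b.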

Other observations

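KO replicate 4, from lactation day 11, held the lowest KO value for 15 of the 65 members and for 8 of the 15 called partners, Rabac1, Rabggta, Rph3al and Rab11fip5 among them. It was lowest for 23.5% of all genes in the table, so its share among members (23.1%) was close to that of all genes. KO replicate 2 held the highest KO value for 16 members (24.6%, against 13.5% of all genes), Rab27a, Rab11a, Rab7b and Rab5c among them. KO replicate 4 also had the highest mean level of skeletal muscle markers, at 6.31 log2 CPM, against 2.36 to 5.34 in the other KO libraries and 1.86 to 4.44 in WT libraries.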
